A study of Homo sapiens with 8 samples.

Results

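The 10 genes described here encode transcription factors of the endothelial and blood lineages: the ETS factors ERG, FLI1, ETS1, ETS2 and ETV2, the SOXF factors SOX7, SOX17 and SOX18, the basic helix-loop-helix factor TAL1 and the zinc finger factor GATA2. They were taken by gene symbol from a deposited table of 30386 genes, and all 10 symbols were found. RNA sequencing covered 8 samples made from WTC-TJP1, an established human stem cell line of the induced pluripotent kind. The labels place 4 samples in the group iEC (endothelial cells) and 4 in the group iREC (retinal endothelial cells by the series title, with the same cell type label as iEC). All are at passage 1, carry the letters C, D, E and F within each group, and have no labelled genotype or treatment beyond these names. All 8 samples come from a single line. The series' design text calls the iREC differentiation matched to that of iEC, without saying whether a letter marks a shared or a separate differentiation, so p-values measure the spread between these samples, which may be technical.

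ETS factors bind DNA through a winged helix domain that reads the core letters GGAA, and most known endothelial enhancers carry such sites. ETV2 acts briefly at the top of the programme and turns on FLI1, ERG, TAL1 and GATA2, after which ERG and FLI1 maintain endothelial identity. The SOXF factors bind through an HMG box, act redundantly in vessel formation and are linked to arterial specification. TAL1 and GATA2 work in a complex with LMO2, LDB1 and E proteins, which is best known in blood stem cells and also acts in endothelium.

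For the start sites of these genes, RefSeq windows (GRCh38.p14) of 250 bases upstream were matched for 5 of the 10 genes: ERG, ETS2, ETV2, TAL1 and GATA2. Each was searched on both strands for the letters that ETS factors read, GGAA. The motif searched for GATA factors was spelled AGATAA. For SOX factors the search used ACAATG. For the E-box of TAL1 and its partners it used CAGATG. None of these motifs contains another. The windows of ETS2 and GATA2 are shown because these are the genes with a window whose level was called different between the groups, and that of TAL1 as the partner of GATA2. For each gene the window nearest to the 5′ end of the gene in the table was taken. Capitals mark the ETS core and the GATA motif on either strand.
ETS2, chr21:38804933-38805182, plus strand: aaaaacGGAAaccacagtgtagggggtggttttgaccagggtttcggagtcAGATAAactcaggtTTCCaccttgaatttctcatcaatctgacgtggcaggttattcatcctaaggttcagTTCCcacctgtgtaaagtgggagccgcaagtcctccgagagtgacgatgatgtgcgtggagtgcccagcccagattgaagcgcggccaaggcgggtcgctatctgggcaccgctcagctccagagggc
GATA2, chr3:128493202-128493451, minus strand: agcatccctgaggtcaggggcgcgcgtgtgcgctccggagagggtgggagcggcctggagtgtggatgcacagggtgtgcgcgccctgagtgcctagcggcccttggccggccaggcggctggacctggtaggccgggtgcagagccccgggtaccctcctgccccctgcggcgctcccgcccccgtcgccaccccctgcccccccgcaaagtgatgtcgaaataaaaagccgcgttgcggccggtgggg
TAL1, chr1:47232336-47232585, minus strand: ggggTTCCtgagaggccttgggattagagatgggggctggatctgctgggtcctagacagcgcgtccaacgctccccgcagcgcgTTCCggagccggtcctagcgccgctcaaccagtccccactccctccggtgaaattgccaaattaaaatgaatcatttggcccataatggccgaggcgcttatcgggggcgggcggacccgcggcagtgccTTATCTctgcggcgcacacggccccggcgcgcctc
The ETS2 window held 3 ETS cores and 1 GATA motif, and the TAL1 window 2 ETS cores and 1 GATA motif. The GATA2 window, at 72.8% GC, held 0 of either. Windows at a second start site differed: that of ETS2 held 6 ETS cores, that of TAL1 4 and that of GATA2 2, each with 0 GATA motifs. The 4 ERG windows held 1 to 4 ETS cores. Of these, 2 windows that overlap each other held the same single GATA motif. Over all 35116 windows of this length in the table, 92.7% held an ETS core and 9.17% the GATA motif. The SOX motif and the E-box, in 9.29% and 12.2% of all windows, were not found in these 3. A match is a run of letters only, and no binding was measured here.

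Endothelial markers were abundant in all 8 libraries: PECAM1, CDH5, KDR, TEK, TIE1, VWF, CLDN5 and ESAM together took 6392 to 8456 CPM (counts scaled to the library size) in iEC and 4020 to 8959 CPM in iREC. KDR alone held 1551 to 2837 CPM in iEC and 1332 to 3807 CPM in iREC. In the edgeR fit described below, 2 of the 8 were called higher in iREC (TEK and CLDN5). Another 3 were called lower (PECAM1, CDH5 and ESAM), beside 13.2% higher and 11.7% lower over all tested genes. Of 15 alternative fits, 4 called CLDN5, 10 CDH5 and 14 ESAM. Total counts per sample ran from 13739364 to 16971865. Among blood markers, PTPRC, which marks leukocytes, had 0 counts in every iEC sample and at most 42 in an iREC sample. SPI1, the myeloid ETS factor, had at most 2 counts in any sample. The 9 of 10 listed blood markers in the table summed to 93.4 to 204 CPM in iEC and 199 to 697 CPM in iREC, of which CD34, which endothelium also expresses, held 44.8 to 177 CPM and 178 to 676 CPM. The sample iREC F stood apart from the others. Its 10 mural and mesenchymal markers summed to 5108 CPM against 1227 to 1927 CPM in the other iREC samples and 215 to 349 CPM in iEC. The largest parts in F were COL3A1 (1641 CPM), POSTN (1315 CPM) and TAGLN (870 CPM). POSTN held 531 to 851 CPM and TAGLN 318 to 732 CPM in the other iREC samples. RGS5 ran the other way, at 60.8 to 161 CPM in iEC and 29.2 to 70.5 CPM in iREC. PDGFRA had 1.70 CPM in F. The 6 epithelial markers of F summed to 4924 CPM against 302 to 1117 CPM in the other iREC samples and 391 to 1174 CPM in iEC. Of that sum in F, KRT8 held 3024.5 CPM and KRT18 1538 CPM, and both were also abundant in every iEC sample. CDH1 had 81.6 CPM in F and EPCAM 3.28 CPM. Its 6 pluripotency markers summed to 516 CPM against 54.2 to 183 CPM and 40.0 to 92.1 CPM. LIN28A alone held 482 CPM of it in F. There POU5F1 and SOX2 had 0.393 CPM each, NANOG 0 and ZFP42 11.7 CPM, and DPPA4, at 22.5 CPM, was below every iEC sample. F also had the lowest endothelial sum, 4020 CPM against at least 6668 CPM in the other iREC samples. In bulk RNA, fewer cells of a type and less RNA per cell cannot be told apart.

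Of the 10 factors, 4 were called different between the groups. ETS2, FLI1 and GATA2 were higher in iREC by 1.92-fold, 1.63-fold and 1.45-fold, and SOX7 was lower, at 2.80-fold more in iEC. ERG, ETS1, SOX17, SOX18 and TAL1 did not pass, and ETV2 was too low to be tested. Calls were made by edgeR's quasi-likelihood test at an adjusted p under 0.05 over all 15330 tested genes. In that fit 25.0% of all tested genes were called, 13.2% higher and 11.7% lower in iREC, so the 4 of 9 tested factors are to be read against that share. Of the 1084 tested genes to which the deposited table gives a transcription factor family, 26.1% were called, 18.5% higher and 7.56% lower. The median log2 fold change was 0.12 over the 9 factors, 0.020 over all tested genes and 0.25 over the transcription factors. The iEC and iREC samples did not overlap for 2 of the 9, SOX7 and GATA2, where 29.1% of all tested genes did not overlap. Without iEC F, iREC C, iREC D or iREC E, 2 of the factors were called, these being SOX7 and GATA2 in each case, and without iREC F 5 were called, TAL1 being added. DESeq2, which called 23.2% of the genes it tested, gave 5, SOX18 being added. The authors' deposited table lists the same 5 with an adjusted p under 0.05: SOX7 (0.000203), ETS2 (0.00453), GATA2 (0.00533), FLI1 (0.0205) and SOX18 (0.0359).

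**Figure D1:**
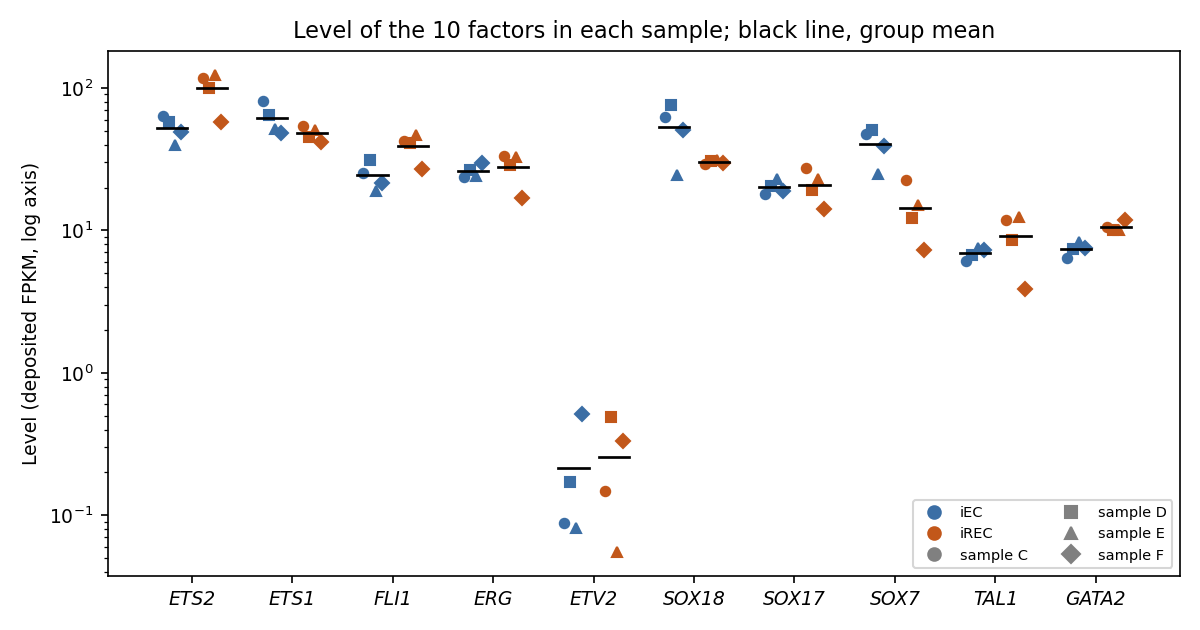
Level of each factor in each sample, as deposited FPKM on a log axis. Blue is iEC, orange is iREC, symbols give the sample letter and the black line is the group mean. ETV2 lies under 1 FPKM in every sample, SOX7 and GATA2 are the tested genes whose groups do not overlap, and iREC F is the lowest iREC sample for 7 of the 10 genes.

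Levels can be compared between genes only per length, which the deposited FPKM values (fragments scaled to gene length and library depth) allow. In iEC the order by mean was ETS1 (61.5 ± 14.8 FPKM, SD, n = 4), SOX18 (53.6 ± 21.95), ETS2 (52.5 ± 10.3), SOX7 (40.5 ± 11.6), ERG (26.0 ± 2.71), FLI1 (24.3 ± 5.38), SOX17 (20.1 ± 2.13), GATA2 (7.41 ± 0.81), TAL1 (6.93 ± 0.62) and ETV2 (0.214 ± 0.203). From SOX18 to SOX17 each gene overlapped the gene next above it in the samples' range, although ETS1 and ETS2 lay wholly above ERG, FLI1 and SOX17. The gaps between SOX17 and GATA2 and between TAL1 and ETV2 were free of overlap. In iREC the order was ETS2 (99.9 ± 30.0), ETS1 (47.9 ± 5.42), FLI1 (39.3 ± 8.59), SOX18 (30.2 ± 1.001), ERG (27.9 ± 7.53), SOX17 (21.0 ± 5.54), SOX7 (14.3 ± 6.38), GATA2 (10.6 ± 0.83), TAL1 (9.17 ± 3.91) and ETV2 (0.256 ± 0.192). There ETS2 stood above ETS1 in every sample and TAL1 above ETV2, and each other neighbour overlapped. Relative to the 16828 protein-coding genes of the table, ETS1 was above 96.4% in iEC and ETS2 above 98.3% in iREC.

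ERG, the ETS factor most restricted to endothelium among adult tissues, keeps vessel junctions and quiescence in place. It had 184, 207, 186 and 219 CPM in iEC C, D, E and F, and 256, 223, 254 and 130 CPM in the iREC samples of the same letters. Samples C, D and E of iREC lay above every iEC sample and F below every one. The log2 fold change was 0.12 ± 0.20 (SE), with a 95% interval of -0.34 to 0.58 and an edgeR adjusted p of 0.713. Without iREC F it was 0.30, with an edgeR adjusted p of 0.104.

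FLI1, the closest relative of ERG, with a role in blood and vessel development, rose. Its iEC samples had 211, 262, 157 and 172 CPM (C, D, E, F) and its iREC samples 354, 342, 390 and 222 CPM. The groups overlapped through iREC F, which lay below iEC D. The log2 fold change was 0.71 ± 0.21 (SE, edgeR adjusted p 0.0393). The call was lost without any 1 of iEC C, E, F or iREC C, D, E (edgeR adjusted p 0.0743 to 0.0996) and with library size as the only scaling (0.0508), and without iREC F it was 0.00921. On GRCh38, FLI1 lies on chromosome 11 from 128686535 to 128813267 on the plus strand. The antisense RNA SENCR overlaps 162 and AP001122.1 overlaps 167 of its 8172 exonic bases. SENCR was at 10.4 ± 1.49 CPM (iEC) and 10.5 ± 1.97 CPM (iREC), with no call (log2 change 0.016 with an SE of 0.20, adjusted p 0.965 by edgeR); its sign varied between alternative fits. AP001122.1 had 1.66 ± 1.28 and 2.999 ± 1.43 CPM and was not called either (adjusted p 0.379 by edgeR). Whether the authors counted by strand is not given in the sources used here.

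ETS1, an activator that responds to growth factor and MAP kinase signals in sprouting endothelium, had 592, 472, 375 and 338 CPM in iEC and 394, 332, 369 and 301 CPM in iREC. Samples C and D of iEC were the highest of all, and E and F lay within the iREC range. Its log2 fold change of -0.35 ± 0.19 (SE) did not pass (edgeR adjusted p 0.205, 95% interval -0.77 to 0.071). It lies on chromosome 11 from 128458761 to 128587558 on the minus strand. MIR6090, a microRNA gene inside ETS1 on the other strand and sharing 0 exonic bases with it, had 0.766 CPM in iEC and 0.245 CPM in iREC (adjusted p 0.186 by edgeR). For MIR6090, limma-voom (adjusted p 0.0490) and the fit without iREC C (adjusted p 0.0110 by edgeR) made a call. Its iREC mean lies near the floor of 3 counts, 0.178 to 0.215 CPM. RNA was selected with poly-T beads, and whether these reads come from the microRNA or from ETS1 was not tested.

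ETS2, a close relative of ETS1 that responds to the same kinase pathway, rose from 299, 270, 186 and 219 CPM in iEC to 552, 468.5, 584 and 267 CPM in iREC. Samples C, D and E of iREC were above every iEC sample, while F lay between iEC F and iEC D. The log2 fold change was 0.94 ± 0.25 (SE, edgeR adjusted p 0.0234). The call was lost without any 1 of iEC E, iEC F, iREC C, iREC D or iREC E (edgeR adjusted p 0.0558 to 0.0650), and without iREC F the log2 fold change was 1.13 (edgeR adjusted p 0.00225). ETS2 lies on chromosome 21 from 38805307 to 38824955 on the plus strand.

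ETV2, the pioneer factor that is switched off once endothelial cells have formed, had 3, 6, 3 and 15 counts in iEC C, D, E and F and 5, 15, 2 and 11 counts in iREC. Both groups ranged from under 0.2 to 1.07 CPM, where the floor of 3 counts corresponds to 0.178 to 0.215 CPM. It lay below the filter on low counts; in the fit without a filter its log2 fold change was 0.27 ± 0.78 (SE, edgeR adjusted p 0.860). ETV2 lies on chromosome 19 from 35641745 to 35644871, and a difference was not detectable at this depth.

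The 4 expressed ETS factors form 2 pairs of genomic neighbours. On chromosome 11, ETS1 and FLI1 point away from each other across 98976 bases, and on chromosome 21, ERG (minus strand, 38380027 to 38661780) and ETS2 (plus strand) do so across 143526 bases. GENCODE release 29 places AP001122.1, which runs into FLI1, between ETS1 and FLI1, and 1 gene wholly between ERG and ETS2, the long intergenic RNA LINC00114, which had a mean of 0 CPM in iEC and 0.0469 CPM in iREC. In each pair 1 gene was called higher in iREC and the other was not called. The ratio of neighbours within a sample, which no library scaling can move, was taken on FPKM. FLI1 stood at 0.312 to 0.485 of ETS1 in iEC and at 0.644 to 0.926 in iREC, and ETS2 at 1.66 to 2.69 times ERG in iEC and at 3.40 to 3.797 times in iREC. Neither ratio overlapped between the groups, iREC F included. How often ratios of other gene pairs separate the groups was not computed. Of all tested genes, 29.1% did so singly. For each, the two-sided exact permutation test gave 0.0286, the smallest p that 4 against 4 samples allow, and 0.04 after Benjamini-Hochberg adjustment over the 7 ratios computed. The 7 ratios share genes and so are not independent of each other. The pairs were chosen after the data were seen, so these p-values are descriptive and add no separate support to the calls.

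Ratios between close relatives use the same ETS genes as the neighbour ratios and are not separate results from them. The ratio of ERG to FLI1 was 0.937, 0.852, 1.27 and 1.37 in iEC C, D, E and F and 0.779, 0.701, 0.700 and 0.631 in iREC (log2 difference -0.63, exact permutation p 0.0286, adjusted 0.04). The ratio of ETS1 to ETS2 was 1.27, 1.12, 1.29 and 0.992 in iEC and 0.459, 0.456, 0.406 and 0.725 in iREC (log2 difference -1.23, exact permutation p 0.0286, adjusted 0.04). ETS1 was above ETS2 in 3 of the 4 iEC samples and nearly level with it in F, and below it in all 4 iREC samples. As a share of the summed FPKM of the 5 ETS genes, ETS2 took 29.6% to 32.8% in iEC and 40.1% to 48.9% in iREC, and ETS1 32.6% to 41.8% and 19.8% to 29.1%. ERG took 12.2% to 19.8% in iEC and 11.8% to 13.4% in iREC, and these ranges overlapped. The ETS sum itself ran from 135 to 194 FPKM in iEC and from 144 to 254 FPKM in iREC.

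**Figure D2:**
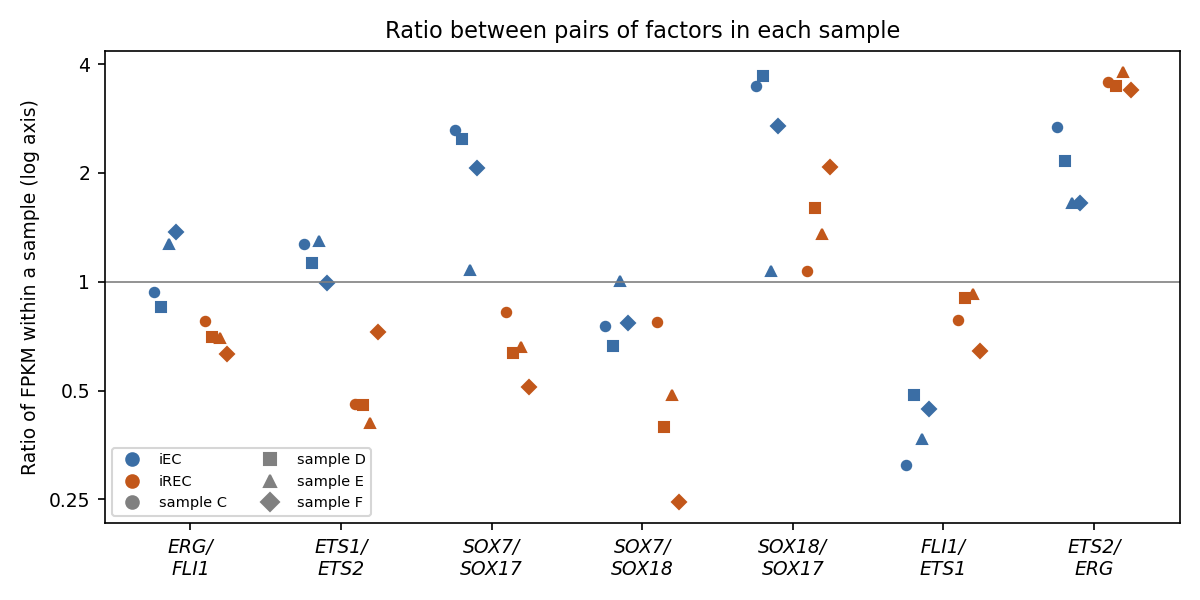
Ratio of FPKM between 2 factors within each sample, on a log axis, for 7 pairs. Blue is iEC, orange is iREC and symbols give the sample letter. The groups do not overlap for ERG/FLI1, ETS1/ETS2, SOX7/SOX17, FLI1/ETS1 and ETS2/ERG, and overlap for SOX7/SOX18 and SOX18/SOX17.

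Of the SOXF factors, SOX7 passed the test, and SOX17 and SOX18 did not. SOX7, which acts early and is expressed in venous as well as arterial cells, fell from 157, 166, 80.7 and 122 CPM in iEC to 73.7, 40.3, 50.02 and 23.6 CPM in iREC. Every iREC sample was below every iEC sample, with iREC C closest to iEC E. The log2 fold change was -1.49 ± 0.34 (SE, edgeR adjusted p 0.0124), and the call was made in all 15 alternative fits, with adjusted p of up to 0.0425. It was -1.27 without iREC F, the lowest sample. On chromosome 8, SOX7 spans 10723768 to 10730512 on the minus strand and shares 1268 of its 3216 exonic bases with a PINX1 gene model (10725399 to 10839847) on the same strand, which was not analysed here. The PINX1 gene in the table has another identifier and no overlap with SOX7, and its log2 change was -0.42 with an SE of 0.185 (adjusted p 0.128 by edgeR). Reads from the shared bases cannot be assigned to 1 of the genes by strand. The antisense AC105001.1 shares 0 exonic bases with SOX7 and was not called (adjusted p 0.324 by edgeR).

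SOX17, the SOXF factor most tied to arterial and haemogenic endothelium, had 43.5, 49.0, 54.5 and 43.1 CPM in iEC and 65.0, 46.2, 55.3 and 33.6 CPM in iREC. The iREC samples C and E were the highest of all and F the lowest, so the iREC range enclosed that of iEC. The log2 fold change was 0.075 ± 0.20 (SE, 95% interval -0.37 to 0.52, edgeR adjusted p 0.816) and changed sign, to -0.079, without iREC C. SOX17 lies on chromosome 8 from 54457935 to 54460888.

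SOX18, a regulator of lymphatic and vessel wall development, had 120, 145, 46.5 and 92.2 CPM in iEC and 55.3, 58.7, 59.6 and 55.5 CPM in iREC. The 4 iREC samples lay close together, with iEC C, D and F above all of them and iEC E below. The log2 fold change of -0.82 ± 0.29 (SE) did not pass (edgeR adjusted p 0.0676). Without iEC E it was -1.05 (edgeR adjusted p 0.00305); DESeq2 (adjusted p 0.0349) and the fit without a filter (edgeR adjusted p 0.0483) also called it. SOX18 lies on chromosome 20 from 64047582 to 64049641.

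Within a sample, SOX7 stood at 2.62, 2.47, 1.08 and 2.06 times SOX17 in iEC C, D, E and F and at 0.827, 0.634, 0.658 and 0.511 times in iREC, on FPKM. SOX7 exceeded SOX17 in all 4 iEC samples and was below it in all 4 iREC samples. The log2 difference was -1.59 (exact two-sided permutation p 0.0286, adjusted over the 7 ratios 0.04). The SOXF pairs, too, were chosen after the data were seen and share genes. SOX7 to SOX18 (-0.85 log2, exact permutation p 0.114, adjusted 0.133) and SOX18 to SOX17 (-0.74 log2, exact permutation p 0.143) overlapped between the groups. The summed SOXF level was 129, 147, 72.3 and 108 FPKM in iEC and 78.9, 62.4, 69.5 and 51.1 FPKM in iREC, with iEC E inside the iREC range. SOX7 made up 34.2% to 37.0% of that sum in iEC and 14.3% to 28.5% in iREC, and SOX17 13.9% to 31.7% and 27.9% to 34.5%. In iEC E, where SOX7 and SOX18 were lowest in the group, SOX17 was highest.

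**Figure D3:**
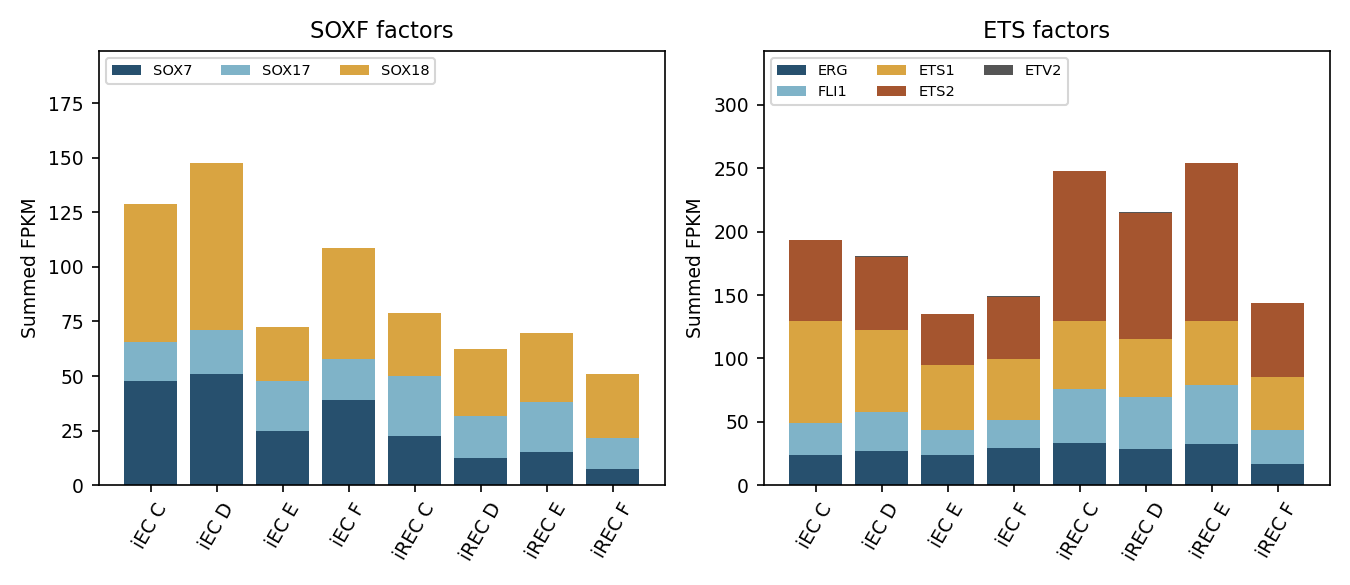
Summed FPKM of the 3 SOXF factors (left) and the 5 ETS factors (right) in each sample, with each bar split by gene. The SOX7 part shrinks from 34.2% or more of the SOXF sum in iEC to 28.5% or less in iREC, and ETS2 grows from at most 32.8% of the ETS sum to at least 40.1%.

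GATA2, which drives blood stem cell genes and, in endothelium, endothelial genes such as EDN1, rose with little spread. Its iEC samples had 29.1, 33.6, 37.7 and 32.8 CPM and its iREC samples 48.0, 46.2, 45.7 and 53.1 CPM. All 4 iREC samples were above all 4 iEC samples, and F was the highest. The log2 fold change was 0.54 ± 0.12 (SE, edgeR adjusted p 0.0109), and all 15 alternative fits called it, with adjusted p of up to 0.0361. GATA2 lies on chromosome 3 from 128479427 to 128493185 on the minus strand. Its antisense RNA GATA2-AS1 shares 0 exonic bases with it and had 4.70 ± 1.25 CPM in iEC and 8.42 ± 2.05 CPM in iREC (log2 change 0.84 with an SE of 0.27, adjusted p 0.0506 by edgeR); 4 alternatives with all samples called it, DESeq2 with an adjusted p of 0.0219.

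TAL1, the helix-loop-helix partner of E proteins that sets blood against cardiac fate in early endothelium, had 35.8, 39.4, 43.4 and 40.6 CPM in iEC and 68.6, 50.2, 72.2 and 22.2 CPM in iREC. Samples C, D and E of iREC were above every iEC sample, and F below every one. With all samples the log2 fold change was 0.42 ± 0.31 (SE, 95% interval -0.28 to 1.12, edgeR adjusted p 0.355). Without iREC F it was 0.68, with an edgeR adjusted p of 0.0126. TAL1 lies on chromosome 1 from 47216290 to 47232220, and the antisense RNA AL135960.1 (2.85 ± 1.20 CPM in iEC, 5.10 ± 3.38 CPM in iREC, edgeR adjusted p 0.322) shares 845 of the 5700 exonic bases of TAL1.

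**Figure D4:**
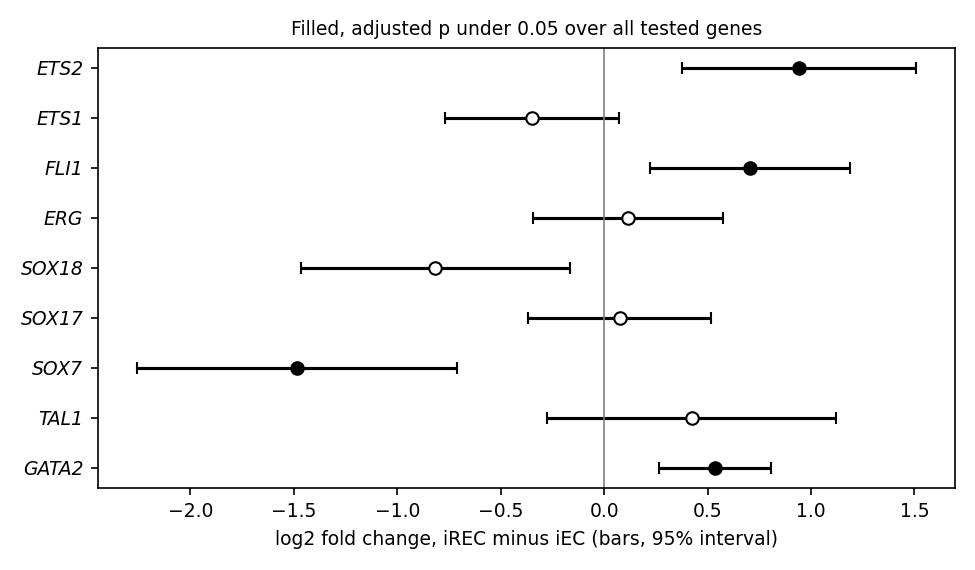
Log2 fold change of the 9 tested factors, iREC minus iEC, with 95% intervals that are not adjusted for the number of genes. Filled points passed the adjusted threshold over all tested genes: ETS2, FLI1, GATA2 and SOX7. The SOX18 interval excludes 0 although its adjusted p, 0.0676, missed the threshold.

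Sample iREC F was the lowest iREC sample for 7 of the 10 factors (ERG, FLI1, ETS1, ETS2, SOX7, SOX17 and TAL1) and the highest for GATA2. Set against the summed endothelial markers of the same sample, ERG was 3.23% in F and 2.83% to 3.84% in iREC C, D and E, and ETS2 6.64% against 6.44% to 8.28%. On this scale F lay between the lowest and highest of iREC C, D and E for 4 factors (ERG, ETS2, SOX7 and SOX17) and above all 3 for 5 (FLI1, ETS1, SOX18, GATA2 and ETV2). It was below all 3 for TAL1, at 0.552% against 0.690% to 1.03%. GATA2 reached 1.32% in F against 0.510% to 0.720% elsewhere. These ratios compare iREC samples only, since 5 of the 8 endothelial markers were called different between the groups, and the part of the other cell types in the fold changes was not tested.

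Genes with the nearest pattern were sought among 9524 protein-coding genes averaging 10 CPM or more, by the root mean square difference of centred log2 CPM over the 8 samples. For FLI1 these were LRCH1 (0.109), ZDBF2 (0.123) and EOGT (0.124), against a spread of FLI1 itself of 0.461 on the same measure. For ETS2 they were ZNF154 (0.136), GALC (0.167) and LCORL (0.169), with an own spread of 0.582. For SOX7 they were GRAMD1C (0.224), ABTB2 (0.236) and THSD1 (0.261), with an own spread of 0.926. For GATA2 they were CORO1C (0.0780), PIGO (0.0867) and DVL3 (0.0893), with an own spread of 0.291. THSD1 encodes an endothelial adhesion regulator and DVL3 a Wnt signalling protein.

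Among the other ETS genes, 20 of 23 listed were in the table, 13 were tested and 6 were called, 3 higher and 3 lower in iREC (list median log2 fold change 0.093, against 25.0% called over all genes). Levels here and for the lists that follow are means ± SD of 4 samples. ETV6, a repressor needed for blood stem cells, rose from 34.1 ± 5.18 to 64.5 ± 4.45 CPM (adjusted p 0.00123 by edgeR). ELK3, a ternary complex factor of endothelium, rose from 45.5 ± 12.8 to 78.6 ± 12.8 CPM (adjusted p 0.0273 by edgeR) and ELF2 from 20.05 ± 4.03 to 30.9 ± 2.50 CPM (0.0228). The ELK3 and ELF2 calls were each lost without any 1 of iEC E, iREC D and iREC E, and that of ELK3 also with the replicate letter as a block.

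The falls were in ETV4 and ETV5, which are induced by fibroblast growth factor signalling, and in ELF4. ETV4 had 67.0, 66.7, 44.0 and 37.2 CPM in iEC and 6.87, 9.64, 4.70 and 24.7 CPM in iREC, with iREC F nearest to iEC. Its log2 fold change was -2.23 ± 0.48 (SE, edgeR adjusted p 0.00921) and -2.93 without iREC F. ETV5 fell from 38.9 ± 0.773 to 18.1 ± 8.47 CPM (edgeR adjusted p 0.0190), and its call was lost without iREC D or iREC E. ELF4, an activator known from lymphocyte quiescence, fell from 55.5 ± 2.41 to 34.4 ± 7.62 CPM (edgeR adjusted p 0.0117). Without iREC D or iREC E, 3 of the ETS list were called.

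Of 16 other SOX genes, 15 were in the table, 9 were tested and 3 were called, 33.3% beside 25.0% of all tested genes (list median log2 fold change 0.034). SOX4, a SOXC factor of progenitor cells, fell from 102.8 ± 24.75 to 36.7 ± 4.83 CPM (log2 change -1.48 with an SE of 0.19, adjusted p 0.000566 by edgeR). SOX6, a SOXD factor, had 0.910, 3.48, 1.12 and 1.22 CPM in iEC and 10.8, 6.07, 6.84 and 7.86 CPM in iREC (edgeR adjusted p 0.00659); its log2 fold change of 2.22 was 2.84 without iEC D, the highest iEC sample. SOX8 rose from 1.57 ± 0.940 to 4.63 ± 1.27 CPM (edgeR adjusted p 0.0421); it lies outside the naming rule and was chosen after its values were seen, and its call was lost without any 1 of iEC C, iEC E, iREC C, iREC D and iREC E and with library size as the only scaling (edgeR adjusted p 0.0507).

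Of the 20 other GATA factors and partners, all in the table, 15 were tested and 8 were called, 5 higher and 3 lower, beside 13.2% higher and 11.7% lower over all tested genes (list median log2 fold change 0.28). The rises included 2 GATA factors. GATA3 had 25.9, 69.9, 20.1 and 27.0 CPM in iEC and 181, 135, 167 and 77.6 CPM in iREC (log2 change 1.97 with an SE of 0.42, adjusted p 0.00848 by edgeR). GATA6, known from heart, gut and endothelium, had 0.195, 3.60, 0.237 and 0.859 CPM in iEC and 21.5, 20.8, 22.3 and 20.3 CPM in iREC, a log2 change of 4.11 with an SE of 0.76 (adjusted p 0.00418 by edgeR), which became 5.62 without iEC D. For GATA6, iREC F lay close to the other iREC samples. For GATA4, iREC F had 74.0 CPM against 0.393, 7.07 and 2.56 CPM in iREC C, D and E, and it was not called (edgeR adjusted p 0.0658). Its log2 change of 4.07 was 1.41 without iREC F, while the fit with no filter, DESeq2 and the fit without iREC C called it.

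ZFPM2, the FOG cofactor of GATA factors, rose from 5.79 ± 1.71 to 27.4 ± 2.63 CPM (log2 change 2.24 with an SE of 0.23, adjusted p 0.000212 by edgeR). LMO4 rose from 18.4 ± 4.16 to 39.4 ± 5.77 CPM (edgeR adjusted p 0.00305), without overlap of the groups, and all 15 alternative fits called it. LMO2, the bridge of the TAL1 and GATA2 complex, was called higher at 56.3 ± 18.8 and 111 ± 29.5 CPM (edgeR adjusted p 0.0314), a call lost without any 1 of iEC D, iEC F, iREC D and iREC E. The falls were in TCF4 and TCF3, E proteins that partner TAL1, and in MEF2C, a factor of vascular and muscle development. TCF4 fell from 242 ± 56.6 to 85.7 ± 10.7 CPM (edgeR adjusted p 0.000445), TCF3 from 178 ± 12.5 to 107.5 ± 12.5 CPM (0.00214) and MEF2C from 130 ± 22.2 to 43.3 ± 11.6 CPM (0.000778). For these 3 genes every iREC sample was below every iEC sample, and all 15 alternative fits called them. Not every partner was called. The E protein TCF12 was not called, at 124 ± 22.7 CPM in iEC and 127 ± 26.3 CPM in iREC (edgeR adjusted p 0.914). LDB1 was not called either, at 63.3 ± 8.50 and 76.7 ± 11.2 CPM (edgeR adjusted p 0.201).

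Endothelial genes known to carry ETS, SOXF or GATA2 sites moved both ways. Of 35 genes, 34 were tested and 19 were called, 9 higher and 10 lower, beside 13.2% higher and 11.7% lower over all tested genes (list median log2 fold change -0.018). BMPER, a BMP modulator, rose from 0.655 ± 0.376 to 104 ± 31.9 CPM (adjusted p 1.75e-05 by edgeR), EMCN, the sialomucin endomucin, from 4.21 ± 1.89 to 432 ± 156 CPM (4.11e-05) and TEK, the angiopoietin receptor, from 58.9 ± 20.6 to 833 ± 272 CPM (0.00011). ANGPT2, the ligand of TEK made by activated endothelium, fell from 1777 ± 234 to 26.5 ± 5.07 CPM (edgeR adjusted p 1.49e-06) and PECAM1 from 2233 ± 286 to 754 ± 175 CPM (0.000632). APLNR, the apelin receptor, had 158, 60.9, 16.8 and 33.8 CPM in iEC and 4.38, 12.8, 11.7 and 5.04 CPM in iREC (log2 change -2.99 with an SE of 0.69, adjusted p 0.0121 by edgeR), and -2.13 without iEC C. No test here links any of these genes to a factor.

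**Figure D5:**
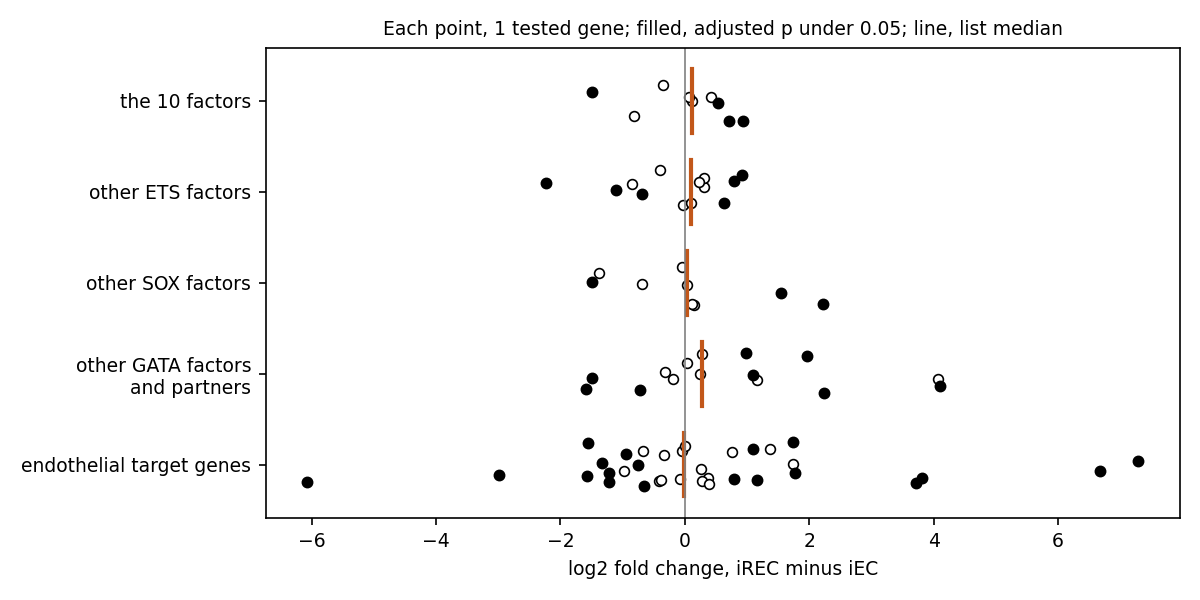
Log2 fold change, iREC minus iEC, of every tested gene among the 10 factors and the 4 lists. Filled points passed the adjusted threshold over all tested genes and the orange line is the list median. The medians lie between -0.018 and 0.28, while single genes run from -6.07 (ANGPT2) to 7.29 (BMPER).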

How the data were processed

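Messenger RNA was selected with poly-T beads and copied with dUTP in the second strand, per the labels' protocols. Per the submitters' processing notes, fastp and HISAT2 2.0.5 were used with hg38; the counting program and its strand setting are not given in the sources used here. The authors deposited 1 table with whole-number read counts, FPKM and a size-factor normalized signal per sample, and with log2 fold changes and p-values of their comparison, whose test the file headers do not name. Gene coordinates, 1-based, equal GENCODE release 29 (GRCh38) for all 10 factors.

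From the counts, genes were filtered with filterByExpr (15330 kept), scaled by TMM and tested with edgeR 4.0.16 (glmQLFit, glmQLFTest; group as the only term; Benjamini-Hochberg over all tested genes; R 4.3.3). CPM refers to TMM-scaled libraries. For log2 CPM the prior count was 2. The fit was checked on simulated counts. Standard errors come from the coefficient and its F statistic. A floor of 3 counts covers counting error only. Ratios between factors were compared by exact permutation over 70 assignments. The naming rule took all 10 factors, up to 3 called genes per direction and list (at least 5 CPM in a group, groups not overlapping), the 3 nearest patterns per called factor, and genes overlapping a factor. GATA4, LMO2, LMO4, LDB1, TCF12, SPI1 and SOX8 lie outside it and were picked with their values in view. The factors and lists were chosen with earlier results of these data known, and the ratios were added after the data were seen.

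Alternatives were DESeq2 size factors, scaling by library size only, leaving the filter out, requiring 1 CPM throughout either group plus 50 counts on average (the stricter filter), DESeq2 1.42.0 on unfiltered counts, limma-voom (limma 3.58.1), the replicate letter as a block, and each sample left out in turn.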

Additional observations from a re-analysis of the deposited data

How the results depend on the processing

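The count of factors called, 4, was 3 with library size only, 5 with no filter and with DESeq2, and 4 with DESeq2 size factors, the stricter filter, limma-voom and the replicate block; leaving out 1 sample gave 2 to 5. Other ETS genes called ran from 3 to 7 in those fits. Other SOX genes called, 3 in the main fit, were 5 with DESeq2. They were 2 with library size only, with the stricter filter, and without any 1 of iEC C, iEC E, iREC C, iREC D and iREC E. The remaining counts stayed within 1.5 times over all alternatives: 7 to 12 GATA factors and partners, 14 to 22 target genes, and 2660 to 4991 genes over the whole table, each highest with DESeq2 (target genes also with no filter). The replicate letters were not taken as pairs, since not every same-letter correlation exceeded 0.1: correlations of deviations from the group mean were 0.168 for C, -0.079 for D, 0.029 for E and 0.2499 for F, iEC C and F, but not D and E, correlated best with the iREC sample of their letter, and iREC C correlated best with iEC D. With the replicate block 3334 genes were called in place of 3829; among the genes named, ELK3 (edgeR adjusted p 0.0510), LMO2 (0.0782) and GRAMD1C (0.0624) were not called.

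Directions changed for SOX17 without iREC C (-0.079; range to 0.22 when other samples were left out) and for SENCR with no filter (-0.010), with DESeq2 (-0.00088), and without iEC C (-0.093), iREC D (-0.0034) or iREC E (-0.0995; range to 0.11). The direction of TCF12 also changed, its log2 fold change running from -0.058 to 0.17 over the alternatives. For the 7 ratios, leaving out 1 sample kept the direction in each case. The depth limits ETV2 alone among the factors; the other 9 had at least 339 counts in every sample. No value of the 20 groups of 4 samples tested (10 factors, 2 groups) exceeded Dixon's 95% critical gap.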
